A study of Mus musculus with 3 samples.

Results

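Double-positive (DP) cells, T cell precursors that carry CD4 and CD8 on their surface at the same time, were found among leukocytes sorted from digested mouse aortas. The members were chosen by measured values: a barcode was counted as a DP cell when it had at least 1 UMI from Rag1, Dntt or Arpp21, at least 1 UMI from Cd3d, Cd3e or Cd3g, at least 10 counts of both the CD4 and the CD8a antibody, and no Cd79a, the B cell receptor signalling gene. A UMI is 1 captured transcript molecule. This rule found 194 DP cells among 5894 kept cells, out of 8471 barcodes in the deposited matrix. They were compared with 425 single-positive (SP) T cells of the same mice, 223 with CD4 alone and 202 with CD8a alone. SP cells were chosen for having no Rag1 and no Dntt UMI, so their 0 for these genes is part of the rule. This limit left out 21 T cells, 7 with CD4 alone and 14 with CD8a alone.

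The data came from CITE-seq, in which transcripts and bound surface antibodies are counted in the same cell, on 10 C57BL/6 mice pooled in 1 run. Each mouse carried its own hashtag, so the mouse was the replicate, and the 3 libraries (transcripts, antibodies, hashtags) share all of their barcodes and hold 88874934 gene UMIs. Mice 1 to 5 were Jak2WT controls and mice 6 to 10 were Jak2V617F Myel mice (Jak2V617F MyC in the sample descriptions), in which LysM-Cre, active mainly in myeloid cells, switches on the Jak2V617F allele. Aneurysm was seen at dissection in mutant mice 7 and 9, and mutant mice 6, 8 and 10 form the dilation group. The mice received no treatment, and their ages were not stated in the sources used here. All of them were injected with an anti-CD45.2 antibody 5 minutes before death to mark blood leukocytes, which were excluded in the sort of viable CD45.2+ leukocytes. Because the experimenters fixed how many cells each genotype contributed, totals per genotype carry no information.

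DP cells are normally the main cell type of the thymus cortex. There the RAG1 and RAG2 recombinase and Dntt, the enzyme that adds untemplated bases to V(D)J joints, build the T cell receptor: the beta chain is made first and pairs with the surrogate chain pre-T alpha (Ptcra), cells divide, and the alpha chain is then rearranged. Cells with a useful receptor lose CD4 or CD8, turn off the recombinase, gain Klf2, S1pr1 and Ccr7, and leave for the blood. DP cells are rare outside the thymus in healthy mice.

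Of the markers of DP cells, Rag1, Dntt and Arpp21 chose the cells and are given as values only. Rag1 had a UMI in 179 of the 194 cells, Dntt in 169 and Arpp21 in 180, and 150 cells had all 3. The sum of the 3 genes had a median of 17 UMIs per DP cell and a range of 1 to 67. Only 6 members stood at the limit of 1, and the 11 barcodes that failed on this criterion alone had 0. The CD4 antibody count of members ran from 10 to 100 with a median of 24.5, and 20 cells lay under 1.5 times the limit. The 17 barcodes left out for CD4 alone had a median of 5. The CD8a antibody count of members ran from 11 to 114 with a median of 40, and the 7 barcodes left out for CD8a alone had a median of 2. On CD4 the members thus reached down to the limit, as the plot of CD4 against CD8a counts shows.

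**Figure D1:**
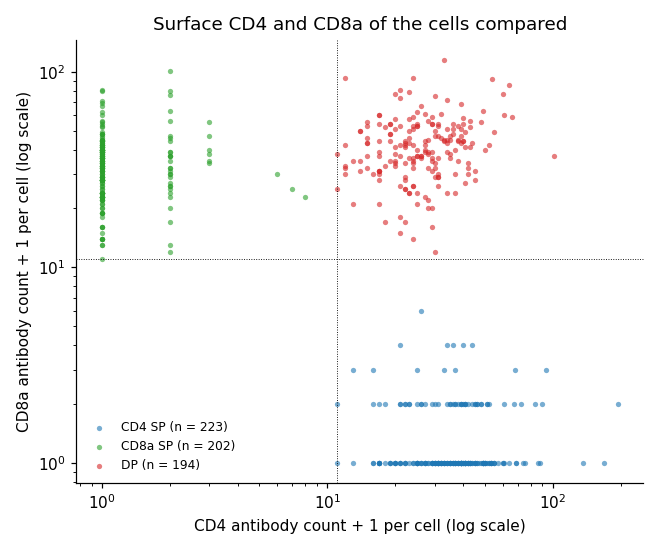
CD4 (x axis) and CD8a (y axis) antibody count + 1 per cell, both on log scales, for 194 DP cells, 223 CD4 SP and 202 CD8a SP cells; each point is 1 cell and the dotted lines mark the limit of 10 counts. The DP cells had medians of 24.5 CD4 and 40 CD8a counts; these antibodies chose the cells, so the separation is a description.

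The label was then set beside markers that the rule did not use. These markers were named with earlier results of these data known, so their shares are descriptions and not an independent check. To set depth aside, each cell was thinned to 1000 UMIs. Themis, an adaptor needed for thymocyte selection, then had a UMI in 45.9% of DP cells, 12.2% of SP cells and 0.0376% of 2659 macrophages (cells with at least 10 C1q UMIs and no Cd3 or Cd79a), which should lack it. Without thinning the shares were 93.3%, 54.4% and 1.05%, at median depths of 4383, 8176 and 11150 UMIs. For Ccr9, the receptor for the thymic chemokine CCL25, the thinned shares were 60.3% in DP cells, 3.76% in SP cells and 0.263% in macrophages. Cd8b1, the CD8 beta chain, was found in 73.7% of thinned DP cells, 19.8% of SP cells and 0.0752% of macrophages. DP cells were chosen on the CD8a antibody and 223 of the SP cells for CD4 alone, so the shares of Cd8b1 are a description. Against CD8a SP cells alone it was not called (log2 fold change 0.25, edgeR adjusted p = 0.551). The shares of Themis and Ccr9 in DP cells were far above those in macrophages. The source of these UMIs in macrophages was not tested. Rag1 itself was seen in 1.17% of macrophages and 1.52% of 657 B cells without thinning, against 92.3% of DP cells. Ly6d stood apart from these genes because B cells held as much of it, with 1031 CPM (UMIs of the gene per 1000000 UMIs of the summed cells) against 978 CPM in DP cells.

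DP cells were small libraries in the mice that held most of them. Their median of 4383 UMIs was below that of SP cells in each mouse with at least 10 cells of both kinds. It was 4354 in mouse 3, 4541 in mouse 6, 4118 in mouse 9 and 4406 in mouse 10, while the CD4 SP medians of these mice lay between 6473 and 7405 and the CD8a SP medians between 8908 and 10360. With few DP cells the picture was mixed. The DP median was 15110 UMIs in mouse 1 (2 cells), 14717 in mouse 2 (5) and 22501.5 in mouse 7 (2), above SP medians of 8449, 8006 and 6744.5. It was 9800 in mouse 4 (3 cells) and 3179.5 in mouse 8 (4), below 9836 and 8464.5. Over all mice DP cells also carried fewer antibody counts, with a median of 312.5 against 519 per SP cell. The hashtag ratio was set to limit doublets of cells from different mice, and doublets within a mouse were not called. Singlets of another hashtag caller, HTODemux, held 164 DP cells among 4719 kept cells. Whether doublets between mice remained was not tested.

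DP cells were found in all 3 groups, and their share varied widely within each. In the Jak2WT group the DP cells made up 0.631% of the kept cells of mouse 1 (2 of 317), 1.24% of mouse 2 (5 of 403), 12.2% of mouse 3 (70 of 575), 2.05% of mouse 4 (3 of 146) and none of mouse 5 (0 of 654, which allows a share of up to 0.459% by a floor of 3 counts and 0.562% by the exact 95% interval). Mouse 3 was thus far above the other 4 controls. In the dilation group the share was 5.42% in mouse 6 (23 of 424), 0.959% in mouse 8 (4 of 417) and 6.4% in mouse 10 (57 of 891). In the aneurysm group it was 0.198% in mouse 7 (2 of 1009) and 2.65% in mouse 9 (28 of 1058). Every group held a mouse under 1% and a mouse at or above 2.65%, and the 4 mice 3, 6, 9 and 10 held 178 of the 194 cells. The exact 95% binomial interval was 9.61% to 15.1% for mouse 3 and 4.88% to 8.21% for mouse 10.

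**Figure D2:**
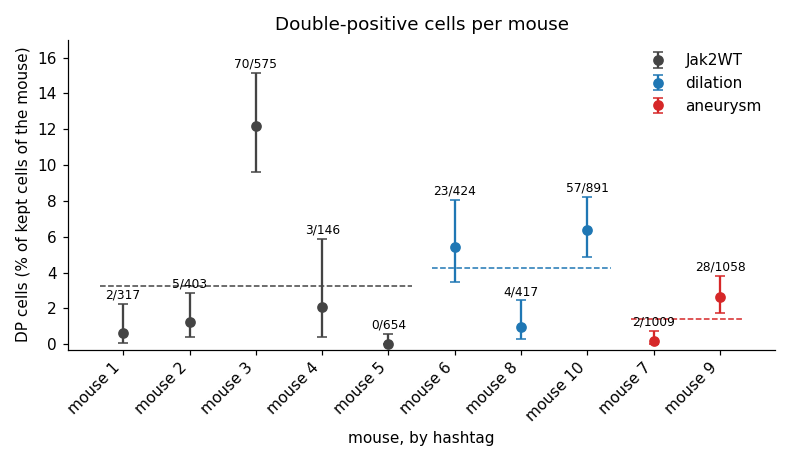
DP cells as a percentage of the kept cells of each mouse (y axis), for 5 Jak2WT, 3 dilation and 2 aneurysm mice; points are mice with exact 95% binomial intervals, dashed lines are group means, and the fractions give DP cells of kept cells. The shares ran from 0% in mouse 5 to 12.2% in mouse 3, both Jak2WT.

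To ask whether the mutation or the aortic state went with more DP cells, group means were compared over mice. The mean share was 3.12% ± 2.72 (SD, n = 5) in Jak2V617F Myel and 3.22% ± 5.06 (SD, n = 5) in Jak2WT mice, which is -0.0949 percentage points apart (exact permutation test of both tails, p = 0.960). Aneurysm mice had 1.42% ± 1.73 (SD, n = 2) against 3.61% ± 4.16 (SD, n = 8) in all other mice (exact permutation test, p = 0.667). Dilation mice had 4.26% ± 2.90 (SD, n = 3) against 3.22% ± 5.06 (SD, n = 5) in Jak2WT mice (exact permutation test, p = 0.857). All 3 p-values were 0.960 after adjustment over these 3 comparisons, while the smallest p these designs allow is 0.00794, 0.0444 and 0.0357. The genotype difference rested on mouse 3: without it the difference was 2.14 percentage points, with more DP cells in the mutant mice (exact permutation test, p = 0.206). Taken over DP and SP cells together, so that other leukocytes do not enter, DP cells were 44.6% in mouse 3, 69.7% in mouse 6, 35.9% in mouse 9 and 49.1% in mouse 10, and at most 20% in the other 6 mice. On this share the genotype difference turned to 18 percentage points, with more in the mutant mice (exact permutation test, p = 0.262). The dilation difference was 27.7 (exact permutation test, p = 0.143) and the aneurysm difference -6.87 (exact permutation test, p = 0.756). Whether SP cells carried more CD24, an antigen of immature T cells, in mice with more DP cells was also asked. Between the DP share and the CD24 share of the SP antibody counts, over the 10 mice, Pearson's r was -0.0538 (permutation p = 0.875) and Spearman's rho was -0.248 (permutation p = 0.490), and r was -0.0254 without mice 3 and 10, which lay farthest from the median share. The sign of r turned when isotype counts set the scale of CD24 (0.172).

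DP and SP cells were then compared in the 4 mice with at least 10 cells of each: mouse 3 (70 DP and 87 SP cells), mouse 6 (23 and 10), mouse 9 (28 and 50) and mouse 10 (57 and 59). UMIs were summed per mouse and class, which gave sums of 118053 to 470377 UMIs for DP and 89262 to 856759 for SP cells, and tested by edgeR with the mouse as a block. The 4 mice take in all 3 groups, and 16 DP cells of other mice did not enter. At an adjusted p below 0.05, 666 of 5333 genes (12.5%) were raised in DP cells and 624 (11.7%) were lowered. Without the mouse as a block the calls fell from 1290 to 850, without mouse 3 to 806 and without mouse 10 to 740. On the scale of edgeR's TMM factors the median of all genes was 0.08, and scaling by total UMIs alone moved it to 0.53, with 1557 genes raised and 344 lowered. With the SP cells not limited on Rag1 and Dntt, which brought 15 more cells into the SP sums, 452 genes were raised and 497 lowered. Log2 fold changes, DP over SP, are on the TMM scale. Levels are in CPM of the summed cells and are not corrected by TMM, so a ratio of levels is not the fold change of the fit. In a bulk sum, more transcript per cell and more cells with the transcript cannot be told apart.

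Rag2, the partner gene of the recombinase, was not itself used by the rule, but both classes were chosen on Rag1 and Dntt. It stood at 55.3, 59.3, 37.8 and 56.3 CPM in the DP cells of mice 3, 6, 9 and 10 and had no UMI in the SP cells of any of them. With SP cells not limited on Rag1 and Dntt, the SP sums held 2 UMIs in mouse 3 (2.18 CPM), 5 in mouse 10 (7.96 CPM) and none in mice 6 and 9. Every DP sum was above every SP sum on either choice, and the log2 fold change without the limit was 3.59. The DP cells were still chosen in part on Rag1, so these values are a description.

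The other genes with the largest rises were less familiar. Chrna9, a nicotinic acetylcholine receptor subunit, stood at 91.4, 135, 34.4 and 95.5 CPM in DP cells and had no UMI in SP cells, at least 57.2-fold higher with 3 counts over the group as the floor. Since it passed the filter on low counts through the DP sums alone, this is a description. Ly6d, a surface antigen also made by B cells, was 296 times as high (1304 against 7 UMIs). Endou, an endoribonuclease, was at 385, 551, 186 and 392 CPM against at most 5.72 CPM in SP cells. Aqp11, an aquaporin, was at 304, 517, 196 and 314 CPM against at most 3.81 CPM. Syt13, of the synaptotagmin family of membrane trafficking proteins, was at 91.4, 373, 92.9 and 230 CPM against at most 1.91 CPM. In all of these genes mouse 9 or mouse 3 was the lowest DP sum, and it was still above every SP sum. BB031773, also of the 12, had no UMI in SP cells, at least 26.0-fold higher by the same floor, and is likewise a description. Others were Dgkeos (antisense to Dgke, so uncertain if strand was not kept) and Rapgef3 (the cAMP-activated exchange factor EPAC1). Tctex1d1 (a dynein light chain family member) and Tube1 (epsilon-tubulin) were also among the 12. The log2 fold changes of Dgkeos, Rapgef3, Tctex1d1 and Tube1 ran from 5.74 to 6.57, with at most 2 UMIs each in all SP sums. Ly6d, Endou, Aqp11 and Syt13 had at most 7. All of these genes also passed the filter on low counts through the DP sums, so their folds are descriptions too. These folds depended on the choice of SP cells: without the limit on Rag1 and Dntt the log2 fold changes were 3.91 for Chrna9, 2.82 for Ly6d, 3.54 for Endou, 3.31 for Aqp11 and 3.54 for Syt13.

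Several strongly raised genes lay side by side in the genome, a pattern looked for after the values were seen. With the tested genes put in order along the chromosomes (GENCODE vM21, GRCm38), 33 had a log2 fold change above 4, and 5 of 5310 adjacent pairs held 2 such genes. On chromosome 4, Tctex1d1 (102978606 to 103005594, plus strand), BB031773 (103004106 to 103011965, minus strand), Insl5 (103017872 to 103026842, minus strand) and Wdr78 (103038065 to 103114555, minus strand) followed one another with log2 fold changes of 5.81, 6.73, 5.59 and 4.69. BB031773, like Rag2, had no UMI in any SP sum. By the floor of 3 counts its log2 fold was at least 4.70, and its fitted value is a description. So are those of Tctex1d1, Endou and Rapgef3, which had at most 4 UMIs each in all SP sums. Insl5 encodes an insulin-like peptide hormone. The ends of Tctex1d1 and BB031773 overlap on opposite strands, so a share of their counts is uncertain if strand was not kept. On chromosome 15, Endou (97711015 to 97731339) and Rapgef3 (97744770 to 97767972), both on the minus strand, lay 13.4 kb apart with log2 fold changes of 6.82 and 6.39. On chromosome 2 the other pair was Rag2 (101624718 to 101632529, plus strand) inside the span of B230118H07Rik (101560781 to 101649532, minus strand, log2 fold change 4.05). Most of these pairs rested on the choice of SP cells: without the limit on Rag1 and Dntt 3 genes were above 4, Tctex1d1 (4.49), BB031773 (4.17) and Insl5 (5.07), and they formed the 2 pairs of 5489, while Wdr78 (3.52), Endou (3.54), Rapgef3 (3.12), Rag2 (3.59) and B230118H07Rik (3.07) were below it.

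Promoter windows (250 bases before and 50 after the start, RefSeq, GRCm38.p6) were searched on both strands for 3 short motifs, of which 2 are reported here. The E-box CAGCTG, a sequence bound by E proteins such as HEB (Tcf12), reads the same on both strands and was in 18.8% of 704 promoters of raised genes, 13.7% of 5533 promoters of tested genes and 16.3% of all 32851 promoters. The TCF/LEF sequence CTTTGA was in 10.8%, 11.6% and 16%. These shares are descriptions. Of the 12 genes with the largest rises, 8 had an entry, and 3 of these 8 promoters held the E-box and 0 the TCF/LEF sequence. Ptcra and Rapgef3 are shown because each window held 3 copies of the E-box, 2 of them in the 250 bases before the start. Ptcra is not among the 12 and was not tested. The start is the RefSeq one, and for Rapgef3 these bases lie inside the GENCODE span given above. The 250 bases before the start follow, 5′ to 3′ on the gene's own strand, with the E-box in capitals, for Ptcra at chr17:46763713-46763962 and Rapgef3 at chr15:97767667-97767916, both on the minus strand.
Ptcra: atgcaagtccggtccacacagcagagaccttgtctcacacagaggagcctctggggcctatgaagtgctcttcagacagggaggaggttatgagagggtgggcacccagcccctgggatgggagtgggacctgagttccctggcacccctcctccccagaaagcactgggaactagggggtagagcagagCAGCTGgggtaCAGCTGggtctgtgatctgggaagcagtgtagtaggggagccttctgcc
Rapgef3: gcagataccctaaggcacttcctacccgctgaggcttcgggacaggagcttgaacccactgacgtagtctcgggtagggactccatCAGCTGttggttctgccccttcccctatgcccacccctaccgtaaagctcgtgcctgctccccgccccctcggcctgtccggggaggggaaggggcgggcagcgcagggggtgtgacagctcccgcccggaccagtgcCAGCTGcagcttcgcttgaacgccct

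Over all genes tested 12.5% were raised and 11.7% lowered. Across a list of 21 genes of the DP program, 16 of the 19 tested genes were raised, 1 was lowered and 2 were not called. The median log2 fold change was 2.02 beside 0.08 for all genes. The count and median include Rag2, which had no UMI in any SP sum and is a description. They also include Cd8b1, in cells chosen on the CD8a antibody. Without the limit on Rag1 and Dntt in SP cells 15 were raised and 1 lowered, and Hes1 was no longer called (0.93, edgeR adjusted p = 0.200). Without mouse 9 the counts were 17 raised and 1 lowered of 21, and 14 and 1 of 17 without cycling cells. The transcription factors Tcf12 (1.46 ± 0.21, log2 fold change ± SE), Satb1 (0.95 ± 0.18), Tcf7 (1.5 ± 0.20), Sox4 (3.35 ± 0.28), Ets2 (1.81 ± 0.22), Myb (2.87 ± 0.28) and Hes1, a target of Notch (3.38 ± 0.57), were all raised. Lef1, which works beside Tcf7 in early T cells, was the 1 gene lowered: 164, 398, 103 and 306 CPM in DP cells against 601, 459, 237 and 481 CPM in SP cells (edgeR, adjusted p = 0.00165). The ranges of Lef1 overlapped between mice, but DP was the lower class in each of them. Tox, needed for the CD4 lineage, and Notch1 were not called. With at least 20 CD4 and CD8a counts Tox was lowered (-1.30, edgeR adjusted p = 0.00881), which gave 15 raised and 2 lowered of 18. The sign of Notch1 turned from -0.10 to 0.35 when total UMIs alone set the scale. Ptcra fell under the filter on low counts, with 46.8, 25.4, 6.88 and 36.7 CPM in DP cells and 1 UMI in all SP sums.

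Themis and Ccr9 were raised 5.59 and 13.8 times in summed CPM. Themis stood at 648, 712, 296 and 456 CPM against 105, 112, 58.9 and 103 CPM, and Ccr9 at 708, 1211, 519 and 806 CPM against 60.7, 11.2, 20.8 and 85.9 CPM. The call of Themis held against CD4 SP and against CD8a SP cells alone (log2 fold changes 2.48 and 1.63). Cd8b1 was different: its log2 fold change was 1.26 against all SP cells, 7.38 against CD4 SP and 0.25 against CD8a SP cells alone (edgeR, adjusted p = 0.551), which leaves no call against the SP cells that also carry CD8.

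**Figure D3:**
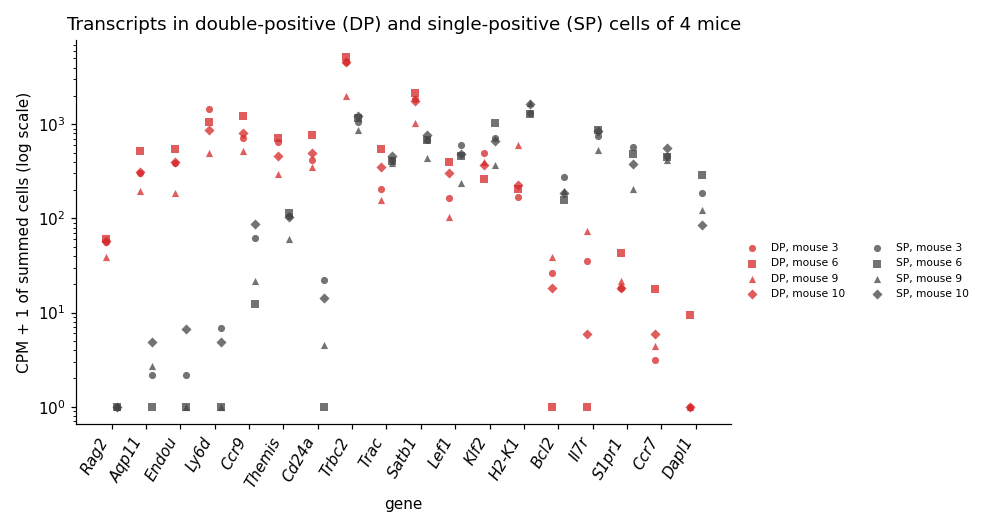
CPM + 1 (y axis, log scale) of 18 genes (x axis) in the summed DP (red) and SP (grey) cells of mice 3, 6, 9 and 10; each point is 1 mouse and class. Rag2 was at 0 in all 4 sums of SP cells, which were chosen for no Rag1 and no Dntt UMI, Trbc2 was higher and Trac mostly lower in DP cells, and Ccr7 stood at 2.13 to 16.9 CPM in DP against 421 to 553 CPM in SP cells.

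Genes of V(D)J recombination and end joining, the repair pathway that seals the breaks, were a mixed group. Of 11 genes 6 were tested, and 4 were raised and 1 lowered (median log2 fold change 1.77), beside 12.5% and 11.7% of all genes. Rag2 is among the 4 and enters this median, though it had no UMI in any SP sum and is a description. Xrcc6, which encodes the Ku70 end-binding protein, stood at 259, 246, 196 and 338 CPM against 16.3, 11.2, 12.1 and 9.54 CPM (log2 fold change 3.88 ± 0.28, edgeR adjusted p = 1.48e-06). Its partner Ku80, Xrcc5, had 13 and 21 UMIs in all and was not tested. H2afx, the histone marked at breaks, had a log2 fold change of 2.26 ± 0.34 and Dclre1c, the Artemis nuclease that opens hairpin ends, 1.29 ± 0.44, and H2afx was no longer called without cycling cells. Lig4, the ligase of the pathway, was not tested but stood at 66.8 CPM in DP and 4.4 CPM in SP cells. The kinase gene Atm was lowered (-1.14 ± 0.34). The calls of Dclre1c and Atm were lost by DESeq2 (adjusted p = 0.0591 and 0.150) and, by edgeR, without the limit on Rag1 and Dntt in SP cells (adjusted p = 0.0593 and 0.0529), where Xrcc6 had a log2 fold change of 2.53. Xrcc4, the partner of Lig4, was not called (39 UMIs in DP and 63 in SP sums), and Prkdc, Trp53bp1 and Nhej1 had too few UMIs to be tested.

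The T cell receptor differed between transcript and surface. Transcripts of the beta chain constant regions were higher in DP cells: Trbc1 was at 2683, 1618, 1599 and 1585 CPM against 573, 616, 451 and 471 CPM (edgeR, adjusted p = 0.000200), and Trbc2 at 4639, 5167, 2008 and 4597 CPM against 1052, 1165, 870 and 1232 CPM (adjusted p = 0.000132). Trbc1 and Trbc2 are near-identical, and reads may be split between them. The alpha chain constant region Trac was at 204, 542, 155 and 348 CPM in DP against 414, 403, 385 and 460 CPM in SP cells, lower in DP cells in 3 of 4 mice and higher in mouse 6. Its log2 fold change of -1.03 ± 0.25 passed the test (edgeR, adjusted p = 0.00931) but not without mouse 3 (-0.82, adjusted p = 0.0610), without the block (-0.88, adjusted p = 0.0948), on total UMIs (-0.57, adjusted p = 0.113) or without the limit on Rag1 and Dntt in SP cells (-0.84, adjusted p = 0.0771). Cd247, the CD3 zeta chain, was raised (0.79 ± 0.23), but not against CD4 SP (0.37) or CD8a SP cells alone (1.02, edgeR adjusted p = 0.0522). In the list of receptor constant regions and CD3 zeta, 3 of 4 tested genes were raised, beside 12.5% of all genes. These raised calls fell to 2 by DESeq2, without the block, without mouse 6 and without mouse 10. Trdc, the delta chain constant region, lies within the alpha chain locus and is cut out when that locus rearranges. It was not tested and stood at 97.8, 59.3, 17.2 and 100 CPM in DP and 0 to 8.17 CPM in SP cells, while Tcrg-C1, Tcrg-C2 and Tcrg-C4 of the gamma chain had 1, 5 and 1 UMIs in all DP sums.

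Antibody counts of the receptor went the other way. The TCRbeta antibody had 0.871, 0.870, 2.57 and 1.16 counts per DP cell in mice 3, 6, 9 and 10, against 8.71, 8.60, 7.02 and 11.6 per SP cell (log2 fold change -3.17 ± 0.52, edgeR adjusted p = 0.00166). The CD3 antibody had 0.443, 1.39, 1.43 and 0.491 counts per DP cell against 5.23, 4.4, 4.78 and 5.76 per SP cell (-2.96 ± 0.44, edgeR adjusted p = 0.000978). No count at all was found on 52.6% of DP cells for TCRbeta and 55.7% for CD3, against 3.06% and 4.00% of SP cells. The receptor antibodies thus had lower counts on cells whose Trbc1 and Trbc2 levels were 3.87 and 3.88 times those of SP cells in CPM. The Cd3 genes chose the cells and are given as levels only: Cd3e stood at 576 CPM in DP and 402 CPM in SP cells. The TCRgd antibody was at 0 in 87.6% of DP cells and 90.6% of SP cells.

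V segments were seen in too few cells to describe a repertoire. Reads lie at the 3′ end of the transcript in this assay and V segments near the 5′ end. Beta chain V segments had a UMI in 75 DP cells (38.7%) and 76 SP cells (17.9%), spread over 19 segments in either class. Alpha chain V segments had one in 56 DP cells (28.9%) and 87 SP cells (20.5%), over 29 and 39 segments. The most frequent beta segment of DP cells was Trbv2, in 15 cells (20% of those with any), and the most frequent alpha segment was Trav3-3, in 5 cells. Delta chain V segments were seen in 14 DP cells (7.22%), in 8 of them Trdv2-2, and in 5 SP cells (1.18%).

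On the surface panel 16 antibodies were lowered and 6 raised of 71 tested (22.5% and 8.45%). The lowered antibodies included CD103, ITGB7, CD127, CD55, TCRbeta, CD3, Ly6C, CD226, CD44, CD5, CD278, JAML, CD11c, CD43 and FCeRIa, and the 6 raised were CD24, CD47, CXCR4, TIM4, CD95 and CD304. The split depended on the scale, with 15 raised and 15 lowered on total antibody counts and 1 raised and 15 lowered on isotype controls. Without the block 1 was raised and 14 were lowered, and likewise without mouse 3. Without mouse 10 the calls numbered 12, with 1 raised and 11 lowered. The counts were 2 and 16 without mouse 9, and 3 and 15 without mouse 6. Most of the 6 rises thus lost their call without the block, mouse 3 or mouse 10. Macrophage signal moved with part of the calls: without cells over 1% macrophage UMIs, TIM4 (0.47, edgeR adjusted p = 0.345), which macrophages also carry, FCeRIa (-0.25, adjusted p = 0.649) and CD43 (-0.60, adjusted p = 0.0861) were no longer called. Nor were FCeRIa, CD95 and CD304 called without the limit on Rag1 and Dntt in SP cells (edgeR adjusted p = 0.0566, 0.0566 and 0.106). CD24 was the 1 antibody raised on all 3 scales. It had 38.3, 35.7, 92.1 and 69.7 counts per DP cell against 10.1, 9, 20 and 10.1 per SP cell (log2 fold change 1.90 ± 0.35, edgeR adjusted p = 0.00248), and no DP cell was without it. The transcript Cd24a rose with it, from 13.2 to 459 CPM. Without the limit on Rag1 and Dntt in SP cells their log2 fold changes were 1.28 and 2.68.

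Of the homing and survival receptors, CD127, the interleukin 7 receptor alpha chain, had 0.0571, 0.0435, 0.214 and 0.0175 counts per DP cell against 1.07 to 1.90 per SP cell. CD103 and ITGB7, integrin chains of tissue and gut T cells, were at 0 in 88.1% and 80.4% of DP cells, against 65.4% and 25.7% of SP cells. CD5, which rises with receptor signalling, had 58.4, 56.7, 65.7 and 78.0 counts per DP cell against 173, 128, 201 and 237, and CD43 had 56.7, 54.7, 63.9 and 58.7 against 122, 125, 131 and 142. Both were found on every DP cell, at a lower count than on SP cells in each mouse. CD44, an adhesion receptor of activated and memory T cells, had 2.07, 3.39 and 3.40 counts in mice 3, 6 and 10 but 28.9 in mouse 9, where SP cells had 42.8. CD26 (-0.89 ± 0.40) was not called, and CD69 was not in the panel.

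Where antibody and transcript could both be tested, most pairs had the same sign. The log2 fold changes of transcript and antibody were -5.08 and -4.52 for Il7r and CD127, -5.52 and -4.2 for Cd55 and CD55, -4.24 and -4.53 for Itgb7 and ITGB7, and -1.33 and -1.83 for Cd5 and CD5. The transcript value of Cd55 is a description, with 1 UMI in all DP sums. Fas and CD95 (1.33 and 0.94) and Nrp1 and CD304 (1.51 and 0.88) rose. Trbc1 and Trbc2 with TCRbeta were the exception among called pairs. Cxcr4 was not called (-0.59 ± 0.24) beside a raised CXCR4 antibody (1.15 ± 0.37), which averaged 0.506 counts per DP cell.

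**Figure D4:**
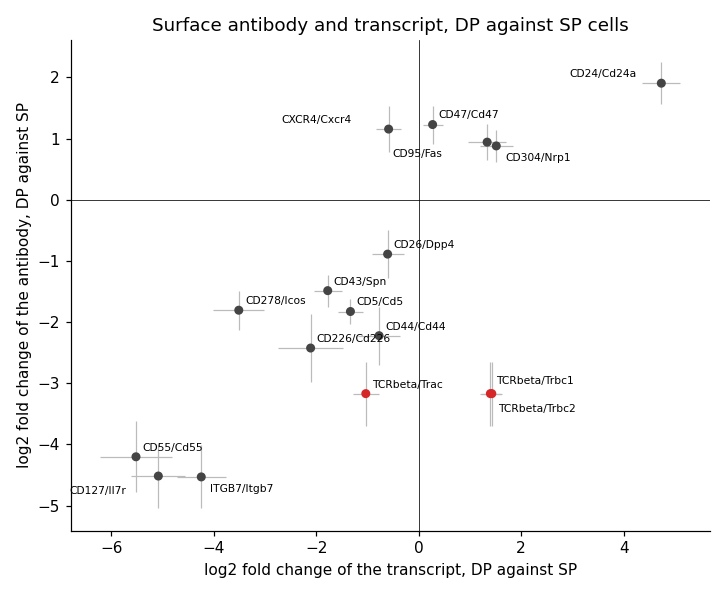
Log2 fold change of the transcript (x axis) and of the antibody (y axis) in DP against SP cells of 4 mice, both from edgeR with the mouse as a block; bars are standard errors, and pairs with TCRbeta are red. TCRbeta with Trbc1 and Trbc2 lies at about 1.4 and -3.17, in a quadrant with no other pair.

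Genes of mature T cells and of exit from the thymus were low in DP cells. Of 14 such genes 12 were lowered, none was raised and 2 (Cd44 and Itgb2) were not called, with a median log2 fold change of -3.04. Over all genes tested 11.7% were lowered and 12.5% raised. Leaving out cells with over 1% macrophage UMIs, all 14 were lowered. Ccr7, the lymph node homing receptor, stood at 2.13, 16.9, 3.44 and 4.90 CPM in DP cells against 463, 448, 421 and 553 CPM in SP cells (log2 fold change -6.97 ± 0.36, edgeR adjusted p = 1.05e-07). Il7r stood at 34.0, 0, 72.2 and 4.90 CPM against 749, 863, 534 and 843 CPM. Ms4a4b, a membrane protein of T cells, was at 12.2 to 34.4 CPM against 773 to 907 CPM. S1pr1, the receptor by which T cells enter the blood, was at 17, 42.3, 20.6 and 17.1 CPM against 578, 482, 206 and 376 CPM. Klf2, the factor that turns on S1pr1, was lowered less (-1.17 ± 0.29, edgeR adjusted p = 0.0107), was higher in DP than SP cells of mouse 9, and was not called on total UMIs (-0.71, edgeR adjusted p = 0.0615), against CD4 SP (-0.82, adjusted p = 0.0687) or CD8a SP cells alone (-0.83, adjusted p = 0.0624), after thinning (-0.65, adjusted p = 0.0721) or without mouse 10 (-1.18, adjusted p = 0.0598). The DP and SP sums of Ccr7, Il7r, Ms4a4b and S1pr1 did not overlap, while those of Klf2, Cd44 and Itgb2 did.

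The gene with the largest fall was Dapl1, a gene of quiescent T cells, with 1 UMI in all DP sums against 84 to 291 CPM in SP cells (-7.50 ± 0.50). Nkg7, a cytotoxic granule protein, Gimap3 and Gimap4, GTPases of lymphocyte survival, Cd55, which protects from complement, Rflnb, an actin organiser, and Klk8, a serine protease, had log2 fold changes from -6.23 to -5.06. Gm2682 and Gm8369, genes without a described product, were at -6.47 and -5.18. Dapl1, Gm2682, Rflnb and Cd55 had at most 2 UMIs each in all DP sums. They passed the filter on low counts through the SP sums, so their values are descriptions. Of 19 genes of effector and tissue T cells 11 were tested and 9 were lowered, none raised, beside 11.7% and 12.5% of all genes. Without the block 5 were lowered, on total UMIs 6 with 1 raised, without mouse 3 6 of 10, and against CD8a SP cells alone 3 of 9 (median log2 fold change -0.54, against -1.71 for all SP cells). Ccl5, a chemokine of memory CD8 T cells, stood at 204, 8.47, 20.6 and 12.2 CPM against 677, 392, 1750 and 1267 CPM, and mouse 3 held most of the DP signal. Against CD4 SP cells alone Ccl5 was not called (-3.47, edgeR adjusted p = 0.172). Tnfrsf4 (-4.54) and Icos (-3.51) also fell, but Tnfrsf4 was not called by DESeq2 (adjusted p = 0.152) and had no UMI in either class of mouse 6. Foxp3, Ifng and Pdcd1 had no UMI in the DP sums.

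MHC class I transcripts were low. Of 8 genes 7 were tested, 6 were lowered and 1, the peptide transporter chain Tap2, was raised (median log2 fold change -1.80). Over all genes tested 11.7% were lowered and 12.5% raised. H2-K1 stood at 168, 203, 609 and 228 CPM in DP cells against 1305, 1300, 1676 and 1637 CPM in SP cells (edgeR, adjusted p = 1.89e-05), and B2m, its light chain, at 559, 601, 1413 and 671 against 1705, 2005, 2170 and 2053 CPM. H2-Q7 was at 8.47 to 82.5 against 336 to 494 CPM, and H2-D1 at 293 to 1121 against 1048 to 1775 CPM. Class I genes are near-identical, and their single counts are uncertain. Mouse 9 had the highest DP level of H2-K1, H2-D1, H2-Q7 and B2m and also the most macrophage UMIs in its DP cells. Without the cells rich in macrophage UMIs the median was -2.62. Nlrc5, the transactivator of class I genes, was not tested and had 4 UMIs in DP and 65 in SP sums. The calls of Tap1 and Tap2 were lost by DESeq2 (adjusted p = 0.105 and 0.0707), those of Tap1 and H2-T23 on total UMIs, and that of Tap1 without the limit on Rag1 and Dntt in SP cells (edgeR adjusted p = 0.106).

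In the list of survival genes, Bcl2 was lowered (25.5, 0, 37.8 and 17.1 CPM against 277, 157, 192 and 185 CPM). Its log2 fold change was -3.62 ± 0.33. Bcl2l1, which encodes BCL-XL, was raised (99.9, 67.8, 114 and 88.2 CPM against 7.00, 0, 52.0 and 13.4 CPM, 2.02 ± 0.41). Bcl2l11, which encodes the death inducer BIM, was raised (0.92 ± 0.21). Bax was not called, and of the 6 genes tested in this list of 8, 2 were raised, 1 was lowered and 3 were not called. Over all genes tested 12.5% were raised and 11.7% lowered, so no result is drawn for so short a list. Of 11 genes of receptor signalling and lineage choice, 9 were tested, 2 were raised and 3 were lowered, beside the same 12.5% and 11.7%. Their median log2 fold change was 0.185, against 0.08 for all genes, and no result is drawn for this list either. Id3, which restrains E proteins, stood at 734, 466, 203 and 424 CPM against 24.5, 33.6, 27.7 and 13.4 CPM. Itm2a (-2.38), Cd5 (-1.33) and Runx3, the factor of CD8 T cells (-2.73), were lowered, and Runx3 was not called against CD4 SP cells alone (-1.02). Nr4a1, an early gene of receptor signalling, was raised (1.23 ± 0.25) but not called against CD4 SP cells alone (0.44, adjusted p = 0.225 by edgeR), and macrophages held 706 CPM of it beside 572 CPM in DP cells. Jak2 itself stood at 40.4, 16.9, 41.3 and 36.7 CPM in DP and 24.5, 33.6, 83.2 and 53.4 CPM in SP cells and was not called.

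Part of the DP cells were in cycle. The summed UMIs of 14 cell cycle genes made up at least 1% of all UMIs in 29 of 194 DP cells (14.9%) and in 2 of 425 SP cells (0.471%), and 10 DP cells lay between 0.5% and 1.5%. The cycling cells were large libraries, with a median UMI count of 12247 where the other 165 had 3987. They numbered 15 of 70 DP cells in mouse 3 (21.4%), 1 of 23 in mouse 6 (4.35%), 2 of 28 in mouse 9 (7.14%) and 9 of 57 in mouse 10 (15.8%). Mice 4 and 7 held 1 each. In the comparison of sums, 12 of 14 cell cycle genes were raised (median log2 fold change 3.10), beside 12.5% of all genes. Among them were Birc5 (3.75), Top2a (3.7), Mki67 (3.62) and Ccnb2 (3.52). Without the block 8 were called (median 2.65), and against CD8a SP cells alone 2 (median 2.43). The choice of SP cells bore on this list: of the 21 T cells left out for Rag1 or Dntt 5 were cycling by the same score, and with them among the SP cells 4 genes were called, with a median of 1.22. Birc5 (1.76, edgeR adjusted p = 0.0719) and Top2a (1.77, adjusted p = 0.0964) were then not called. With the cycling cells left out, 1 of the 4 still tested was raised. These cells were left out on the same 14 genes, so the fall in calls follows from the choice and is a description. Mki67 stood at 680, 263, 189 and 806 CPM in DP against 9.34, 0, 12.1 and 137 CPM in SP cells.

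**Figure D5:**
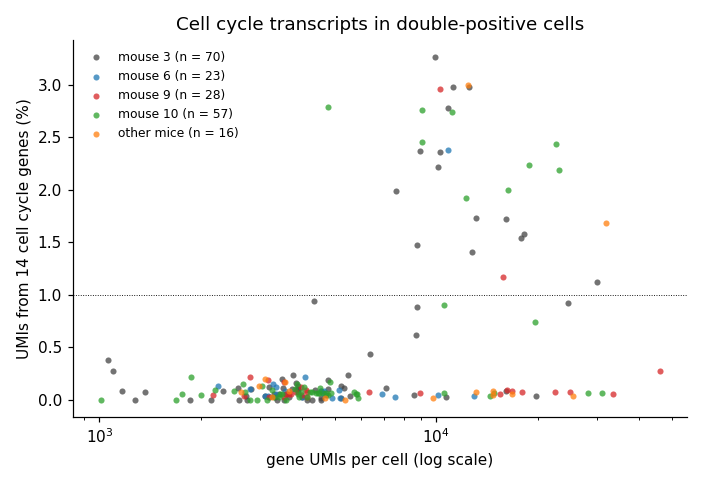
Percentage of UMIs from 14 cell cycle genes (y axis) against gene UMIs per cell (x axis, log scale) in 194 DP cells, coloured by mouse; the dotted line marks 1%. The 29 cells at or above 1% lay at a median of 12247 UMIs, the 165 below it at 3987.

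Genes of the recombination steps were set side by side in cycling and other DP cells. The cycling cells are a range of a score, not a type, and their values in the 2 mice with at least 5 of them are descriptions with no test. Rag1, which chose members, stood at 595 and 534 CPM in the cycling cells of mice 3 and 10 against 1838 and 1242 CPM in their other DP cells. Ccr9 stood at 187 and 456 against 1088 and 964 CPM, and Trac at 95.8 and 126 against 283 and 448 CPM. Ptcra went the other way, with 80.7 and 55 against 22.1 and 28.5 CPM (16 and 7 UMIs against 6 and 8), as did Hes1, with 166 and 62.9 against 33.1 and 10.7 CPM. Dntt was closer, with 832 and 841 against 1117 and 801 CPM, and so was Trbc2, with 4967 and 5570 against 4400 and 4156 CPM. In both mice Ptcra was thus higher and Trac lower in the cycling cells, with few Ptcra UMIs in mouse 10. Their TCRbeta antibody counts averaged 0.133 and 0.444 per cell against 1.07 and 1.29. H2-K1 stood at 55.5 and 94.3 against 250 and 288 CPM.

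Markers of other cell types were read in the same sums. The macrophage list (Lyz2, C1qa, C1qb, C1qc, Csf1r, Apoe) was higher in DP cells in each mouse, at 5447, 7454, 20837 and 6331 CPM against 1593, 583, 9870 and 3293 CPM in SP cells of mice 3, 6, 9 and 10. All 6 genes were raised, beside 12.5% of all genes, with Apoe the most abundant. None of the 6 was called without the block (median log2 fold change 1.05, against 1.25 with it) or against CD4 SP cells alone (median 0.60). These UMIs were concentrated: 25 DP and 27 SP cells had over 1% macrophage UMIs, 10 of the DP cells in mouse 9, and the 25 had a median of 16185 UMIs against 4056 in the rest. Without these cells none of the 5 macrophage genes still tested was called. The cells were left out on the same genes, so this loss follows from the choice and is a description. The transcript calls were then 685 raised and 754 lowered. The platelet list followed, with Pf4, which macrophages also make, at 574, 745, 1293 and 487 CPM in DP cells. Of 5 B cell genes 1, Ighm, was tested and not called: it stood at 279, 186, 155 and 252 CPM in DP cells and was seen in 20.1% of DP cells and 16.6% of macrophages after thinning. Of 4 B cell precursor genes, Vpreb1 and Igll1 were at 0 in the DP sums, and Vpreb3 and Ebf1 summed to at most 4.90 CPM in any of them.

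The remaining lists held little. Of 7 genes of thymic epithelium, Krt5, Krt8, Foxn1 and Psmb11 were at 0 in the DP sums, and the list summed to 40.4, 50.8, 20.6 and 39.2 CPM against 16.3, 22.4, 38.1 and 26.7 CPM in SP cells, with Ccl25 or Epcam the most abundant. Red cell transcripts were set by mouse 3, at 4686 CPM in DP and 20289 CPM in SP cells, against 157 CPM or less in SP and 161 CPM or less in DP cells of the other 3 mice. Fibroblast genes stood at 19.1, 33.9, 282 and 24.5 CPM in DP cells, with Dcn leading. The neutrophil list reached 50.8 CPM at most, the NK cell and ILC2 list 44.1 CPM and the NKT cell gene Zbtb16 27.5 CPM in any DP sum, and Ncr1 was at 0. The delta chain gene led the gamma-delta list in DP cells, and Sox13 was at 0. Whether any of these RNAs came from other cells in the same droplet was not tested.

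Within DP cells the genotypes could not be compared as planned, since mouse 3 was the 1 Jak2WT mouse with at least 10 of them. With 5 cells as the limit, mice 2 and 3 stood against mice 6, 9 and 10. Then edgeR called none of 5209 genes (0%), with 97 at an unadjusted p below 0.05, and DESeq2 called 10 (0.192%) with 66 at that level, but gave no adjusted p for 3736 of the genes. Ccl5 was lower in mice 6, 9 and 10, at 8.47, 20.6 and 12.2 CPM against 1976 CPM in mouse 2 and 204 CPM in mouse 3 (log2 fold change -6.13, DESeq2 adjusted p = 1.83e-08, edgeR 0.673). Hba-a2, a hemoglobin chain, was also lower in the mutant mice and was set by mouse 3 (621 CPM). Cxcl2, a chemokine of myeloid cells, was higher, at 1796, 5042 and 1538 CPM against 165 and 244 CPM (log2 fold change 3.83, DESeq2 adjusted p = 1.98e-06, edgeR 0.673). Ier3, Mt1, Nfkbiz and Ccl4, genes of stress and inflammation, followed with log2 fold changes of 3.15, 3.11, 2.58 and 2.45. The other calls were Zfp36 (2.12) and the MHC class II genes H2-Eb1 (2.44) and H2-Aa (2.05), also higher in the mutant mice. By edgeR the adjusted p was at least 0.673 for each of the 10. The 5 DP cells of mouse 2 had a median of 14717 UMIs, against 4118 to 4541 in mice 3, 6, 9 and 10. Cells with over 1% macrophage UMIs numbered 2 of 5 DP cells in mouse 2, 5 of 70 in mouse 3, 2 of 23 in mouse 6, 10 of 28 in mouse 9 and 3 of 57 in mouse 10, and their part in the 10 calls was not tested.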

How the data were processed

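The authors deposited 1 table of whole UMI counts per barcode for genes, antibodies and hashtags, made by Cell Ranger 6.0.2 (per the file headers) on mm10 (per the labels). These counts were used as deposited, without normalization by the authors. Kept cells had a top hashtag count at least 3 times the second, at most 10% mitochondrial UMIs and at least 1000 gene UMIs. The hashtag ratio was set to limit doublets between mice, and no doublet caller was run within mice. Total counts per mouse and class give the depth, and binomial intervals cover counting error only.

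The members and gene lists were chosen with earlier results of these data known. UMIs were summed per mouse and class in mice with at least 10 cells of each and tested with edgeR 4.0.16 (quasi-likelihood test, TMM factors, filterByExpr, Benjamini-Hochberg adjustment over all features tested). The mouse was a block because DP and SP cells came from the same animals; deviations of their sums from the class means correlated at 0.429, 0.288, 0.695 and 0.507 within mice 3, 6, 9 and 10 over 1000 genes. DESeq2 1.42.0 was an alternative and scipy 1.17.1 gave permutation tests. HTODemux of Seurat 5.3.0 was an alternative to the hashtag ratio. Genes that chose the members were not tested between DP and SP cells, but were not taken out of the genotype fit within DP cells. Scripts were tested on simulated data.

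Genes were named by a rule: the 12 largest rises and 12 largest falls with the same sign in every mouse, the members of 4 lists, up to 4 members by size from other lists, every called antibody, up to 5 genes a direction by genotype, and Jak2. S1pr1, Klf2, Nr4a1, the genes matched to antibodies, Foxp3, Ifng, Pdcd1, the genes of the cycling comparison and the neighbouring genes were named after their values were seen. Positions are from GENCODE vM21 (GRCm38), and promoters from RefSeq. Some genes and antibodies that the rule names are not reported here.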

Additional observations from a re-analysis of the deposited data

Results flagged for a closer look

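Among 28 groups of values examined, 3 held a mouse far from the others, and chance flags about 1 in 20 groups. Jak2WT mouse 3 had a DP share of 12.17%, while the other 4 Jak2WT mice had at most 2.05%. Mouse 9 had the smallest difference between DP and SP cells in Rag2, a log2 difference of 2.258 in CPM + 10, and in Rflnb, one of -2.497. The DP cells of mouse 9 also had the most macrophage UMIs (20837 CPM), and the part of these in either value was not tested.

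Barcodes outside the kept cells also carried the DP profile: 81 met every criterion except the hashtag ratio, against 194 that met all of them. They were 29.4% of the 275 barcodes with that profile, beside 18.9% of 524 for SP cells, and had a median of 14737 UMIs, with the top hashtag 1.56 times the second. Among kept cells without Cd79a, 14 had at least 5 UMIs of Rag1, Dntt and Arpp21 but neither the CD4 nor the CD8a antibody at 10 counts. These had a median of 24748 UMIs, and 8 of them had an Il2ra UMI, 6 Ptcra and 10 Ighm. A further 8 such cells had CD8a alone, all with a Cd3 UMI, 5 with Ptcra and 4 cycling, and 5 had CD4 alone, 3 of them without a Cd3 UMI.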

How the results depend on the processing

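The genotype difference in DP share had no stable sign. It was -0.0949 percentage points as reported and 0.377 with HTODemux singlets, 0.0737 with at most 5% mitochondrial UMIs, 0.0385 with at least 500 UMIs, 0.181 with at least 20 antibody counts, 1.39 without cells over 1% macrophage UMIs and 18 as a share of DP and SP cells. It ran from -0.913 to 2.14 when 1 mouse was left out, turning positive without mice 3, 7 (0.637), 8 (0.447) or 9 (0.0248). With 1 mouse left out the dilation difference ran from -0.0282 (without mouse 10) to 3.28 (without mouse 3) and the aneurysm difference from -3.41 to -0.964. They were 27.7 and -6.87 as a share of DP and SP cells, and 3.88 and -3.8 without macrophage-rich cells. The CD24 correlation was 0.172 per isotype count and ran from -0.279 to 0.0929, turning positive without mice 5, 7 (0.0184) or 10 (0.0297). The number of DP cells ran from 136 to 218 over all limits. Transcript calls were 1290 as reported, 850 without the mouse as a block (no replicate block), 331 after thinning (of 760 tested), 785 against CD4 SP and 819 against CD8a SP cells alone, and 740 to 1298 with 1 mouse left out. Antibody calls were 22 as reported, 15 without the block, and 12 to 18 with 1 mouse left out. Of 99 named transcripts 32 lost their call under at least 1 alternative, 13 gained one, and the sign turned in 6 that were called neither before nor after. Of 69 antibodies examined this way 12 lost and 14 gained one, and the sign turned in 29, again with no call before or after; 1 antibody not reported here turned from no call to a call of the other sign. The cause was not tested. Leaving out macrophage-rich or cycling cells, scaling by total UMIs and lifting the limit on Rag1 and Dntt in SP cells were chosen after seeing the data. The genotype fit within DP cells gave no value at 10 cells, and its other alternatives were not run. Depth limits genes under the filter on low counts, such as Ptcra.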
